A study of Mus musculus with 9 samples.

Results

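The genes described here are nuclear genes for parts of the mitochondrial respiratory chain and of ATP synthase. They were read in blood monocytes of mice with different deletions of the inhibitory Fc receptor gene Fcgr2b. Members were all gene symbols that begin with Nduf (complex I), Sdh followed by a to d (complex II), Uqcr (complex III), Cox followed by 4 to 8 (complex IV) or Atp5 (complex V, the ATP synthase), whose FPKM averaged 1 or more across all 9 libraries. FPKM are fragments scaled by transcript length and library total. Of 23234 symbols in the files, 92 carried these prefixes and 87 reached the minimum: 41 for complex I, 6 for complex II, 8 for complex III, 15 for complex IV and 17 for complex V. By protein, 78 of the members are subunits and 6 are assembly factors (Ndufaf1 to Ndufaf4, Sdhaf1 and Sdhaf2). Atp5s and Atp5sl are related proteins, and Cox4nb, now named Emc8, belongs to a complex of the endoplasmic reticulum in spite of its symbol.

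The 5 symbols under the minimum are isoforms or relatives known from other tissues. Cox4i2, Cox8b and Cox8c were listed at 0 in all 9 libraries, Cox7b2 had a mean of 0.0963 FPKM and Ndufa4l2 a mean of 0.0298 FPKM. The 13 protein genes of mitochondrial DNA, which supply further subunits, matched 0 symbols in the files and are not analysed here. Nuclear genes of the chain whose symbols lack the prefixes above are not members either.

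Complex I oxidises NADH and complex II succinate, and both hand electrons to coenzyme Q. Complex III passes them on to cytochrome c, complex IV to oxygen, and the proton gradient built on the way drives ATP synthase. In blood, Ly6C-high (Gr-1+) classical monocytes are recruited to inflamed tissue, while Gr-1- nonclassical monocytes patrol the vessel wall, and both use glycolysis as well as respiration.

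All mice were C57BL/6 animals, 8 months of age, that carried Yaa, a Y-linked autoimmunity locus with an extra copy of Tlr7, so the controls carry it too. CD11b+ cells were sorted from peripheral blood by Gr-1. The Gr-1+ libraries are 2 from mice labelled CD32null, which lack Fcgr2 in every cell (null), and 1 each from CEBPaCreCD32Flox (CEBPaCre, deletion in myeloid cells) and CD19CreCD32Flox (CD19Cre, deletion in B cells). The Gr-1- libraries are 1 each of null, CEBPaCre, CD19Cre, CD11cCreCD32Flox (CD11cCre, deletion in dendritic cells and part of the monocytes) and CD32Flox without a Cre gene (floxed). The labels do not say whether libraries came from separate mice or pools, so p-values measure the spread between these libraries, which may be technical. RNA of about 100000 sorted cells per library was amplified with a low-input kit.

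FPKM carry no read totals, so depth is unknown. A relative depth read from the smallest steps between FPKM values ran from 0.693 in the first null Gr-1+ library to 2.66 in the CD19Cre Gr-1- library, with floxed set to 1. Fcgr2b was not lower where the labels remove it from myeloid cells, with 137 ± 45.1 FPKM (SD, n = 5) against 125 ± 62.5 (n = 3; exact two-sided permutation p = 0.607 over 56 assignments, of which 0.0179 is the smallest possible). The files give 1 value per gene, so whether those reads came from deleted exons was not tested, and each library below is called by its label. Classical monocyte markers summed to 4497 to 9227 FPKM in Gr-1+ libraries and 157 to 399 in Gr-1- libraries, nonclassical markers to 587 to 856 and 2805 to 5201, so each marker list was highest behind its own gate. Both CD19Cre libraries stood apart in the share of FPKM from cytosolic ribosomal protein genes, 1.91% and 2.17% against 3.51% to 7.46% in the other 7. The subset calls, and the medians by complex of the subset and deletion comparisons, are also given without them.

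Respiratory chain genes were among the well-expressed genes of these monocytes. Together the members took 2.64% to 2.90% of all FPKM in the 4 Gr-1+ libraries and 2.02% to 2.62% in the 5 Gr-1- libraries, so the ranges did not overlap. The median member of complex IV had a mean of 210.2 FPKM, of complex III 208, of complex V 196, of complex I 85.3 and of complex II 66.2. The highest means were those of Cox4i1 (471 FPKM), Ndufa3 (443), Cox6a1 (439), Cox6b1 (432) and Atp5l (397), of which Cox4i1 encodes a regulatory subunit of cytochrome c oxidase. The lowest were Atp5s (1.36 FPKM), the muscle isoform Cox7a1 (1.76), the assembly factor Ndufaf4 (2.72), the heart and muscle isoform Cox6a2 (3.19) and the assembly factor Ndufaf2 (5.17). Of the 87 members, 28 share at least 200 bases at 95% identity or more with another annotated gene. These include Ndufs5, Ndufb5, Atp5c1, Atp5f1 and Atp5h. Values of all 28 can hold reads of the other gene. The search did not tell copies from genes that overlap at the same locus.

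Between the subsets, most members were higher in Gr-1+ monocytes by a modest amount. The log2 difference of FPKM + 1 was positive for 79 of 87 members, with a median of 0.41 against 0.09 over all genes tested. By limma with Benjamini-Hochberg adjustment over all genes, 7 members were called at an adjusted p of at most 0.05, all higher in Gr-1+, and 0 were called higher in Gr-1- (29 had an unadjusted p under 0.05). Over all genes tested the same fit called 14.8% in either direction and 8.84% as higher in Gr-1+, so the members' share of calls was close to that background while their median lay above it. The medians by complex were 0.46 for complex I, 0.32 for complex II, 0.33 for complex III, 0.41 for complex IV and 0.38 for complex V. Without both CD19Cre libraries they were 0.54, 0.35, 0.42, 0.49 and 0.50 in the same order. The median of all members was then 0.49, against 0.09 over all genes. After scaling each library by its median ratio, which moved the median of all genes by over 0.1 to -0.02, the members' median was 0.28. Relative to all genes the members' median was 0.32 as deposited, 0.30 after that scaling and 0.24 after quantile normalization.

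**Figure D1:**
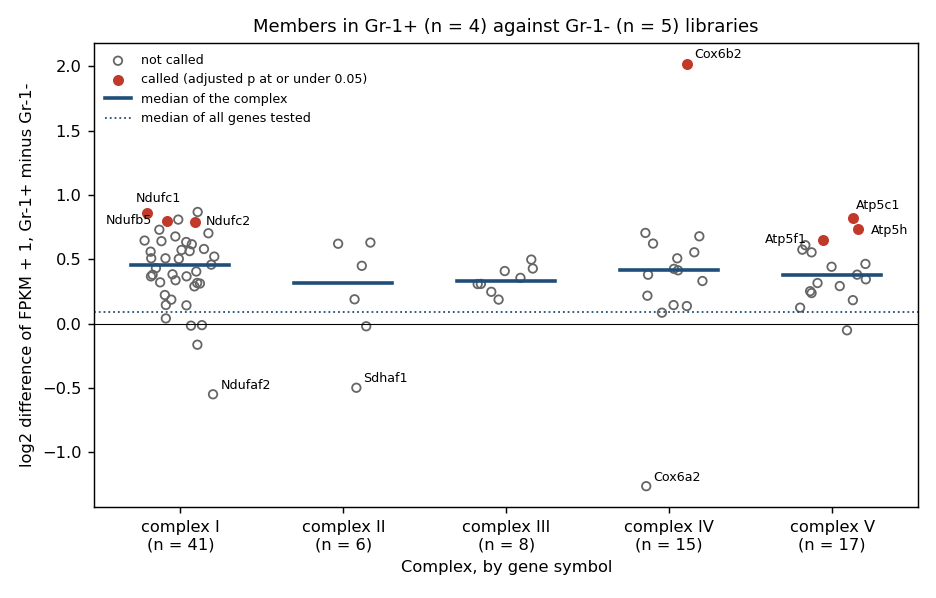
Each point is 1 member, placed by complex on the x axis and by its log2 difference of FPKM + 1 (4 Gr-1+ minus 5 Gr-1- libraries) on the y axis. Filled points are the 7 called members, bars are medians of a complex (0.32 to 0.46) and the dotted line is the median of all genes tested, 0.09.

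In complex I, 3 accessory subunits rose in Gr-1+ cells, Ndufc1, Ndufc2 and Ndufb5. Ndufc1, a small membrane-arm subunit, had 174 and 156 FPKM in the null Gr-1+ libraries, 195 in CEBPaCre and 217 in CD19Cre, against 94.9 (null), 93.0 (CEBPaCre), 87.4 (CD11cCre), 117 (CD19Cre) and 115 (floxed) in the Gr-1- libraries. The lowest Gr-1+ library lay above the highest Gr-1- library, and the log2 difference was 0.86 ± 0.19 (SE; limma adjusted p = 0.0106). Ndufc2, its neighbour in the membrane arm, had 118, 98.0, 137 and 95.8 FPKM in the Gr-1+ libraries in the same order and 56.3, 63.0, 61.0, 65.4 and 73.5 in the Gr-1- libraries. Its groups did not overlap either, with a difference of 0.79 ± 0.19 (SE; limma adjusted p = 0.0143). Ndufb5 had 78.1 ± 12.5 FPKM (SD, n = 4) in Gr-1+ and 44.8 ± 10.4 (n = 5) in Gr-1-, with the CD19Cre Gr-1- library at 63.1 overlapping the second null Gr-1+ library at 60.0 (log2 difference 0.80; limma adjusted p = 0.0256). It shares sequence with Mrpl47, a mitochondrial ribosomal protein gene.

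The 7 catalytic core subunits of complex I were all on the Gr-1+ side with a median of 0.37, and 0 were called. Ndufs8, an iron-sulfur core subunit, had the largest difference of the complex, 0.87, but missed the threshold (limma adjusted p = 0.0593), with the CD19Cre Gr-1- library at 139 FPKM beside 64.5 to 73.2 in the other Gr-1- libraries. Ndufs1, the largest core subunit, had 18.7, 25.2, 27.7 and 34.7 FPKM in Gr-1+ and 21.2, 25.2, 25.4, 29.1 and 15.2 in Gr-1- libraries, so the groups overlapped. Ndufv1, which binds NADH, overlapped as well, with 61.7 ± 13.6 FPKM (SD, n = 4) against 47.5 ± 15.1 (n = 5).

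Of the 6 assembly factors among the members, 5 had a log2 difference below 0 and 0 were called, with a median of -0.09, and Ndufaf4 and Sdhaf2 were level at -0.02 each. Of 24 further assembly factors outside the members, 16 were above 0, with a median of 0.13. Of the 78 subunits, 76 were above 0, all but Cox6a2 and Ndufa11, and the difference between subunits and assembly factors was not tested. Ndufaf2, a chaperone of complex I assembly, was the only member whose Gr-1- libraries all lay above the Gr-1+ libraries. It had 4.73, 3.38, 4.28 and 3.25 FPKM in Gr-1+ against 6.41, 6.96, 4.74, 5.84 and 6.95 in Gr-1-, a log2 difference of -0.55 (limma adjusted p = 0.0627). Ndufaf4 was level, with 2.68 ± 0.119 FPKM (SD, n = 4) and 2.75 ± 0.571 (n = 5).

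In complexes II and III no member was called. Among the 4 subunits of succinate dehydrogenase, Sdhc, a membrane anchor, had 63.1 to 68.6 FPKM in Gr-1+ and 43.1 to 61.8 in Gr-1- libraries without overlap (log2 difference 0.45; limma adjusted p = 0.121). Sdha, the flavoprotein, had 56.1, 65.8, 85.8 and 116 FPKM against 54.4, 75.1, 76.3, 111 and 42.5, with CD19Cre highest in each subset. All 8 members of complex III were on the Gr-1+ side. Uqcrfs1, the Rieske iron-sulfur protein, had 101 ± 14.5 FPKM (SD, n = 4) against 78.8 ± 12.1 (n = 5), a log2 difference of 0.36 that missed the threshold (limma adjusted p = 0.268).

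In complex IV the called member was Cox6b2, the testis isoform of the subunit that Cox6b1 encodes elsewhere. Cox6b2 had 18.2 and 14.1 FPKM in the null Gr-1+ libraries, 11.5 in CEBPaCre and 2.44 in CD19Cre. In the Gr-1- libraries it had 1.19 (null), 1.81 (CEBPaCre), 2.51 (CD11cCre), 0.580 (CD19Cre) and 2.54 (floxed). The 3 null and CEBPaCre Gr-1+ libraries were high, and the CD19Cre Gr-1+ library lay within the Gr-1- range. On the FPKM + 1 scale the subset fold was 4.05 (log2 difference 2.02 ± 0.46, SE; limma adjusted p = 0.0122). Cox6b1 had 457 ± 85.4 FPKM (SD, n = 4) and 412 ± 51.0 (n = 5), and Cox6b2 made 2.17% to 3.54% of their sum in the 3 high libraries and 0.123% to 0.703% in the other 6.

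Cox4i1 had 623, 462, 731 and 533 FPKM in Gr-1+ and 319.7, 371, 417, 426 and 355 in Gr-1- libraries. The groups did not overlap, and the difference of 0.62 missed the threshold (limma adjusted p = 0.0718). Cox7a2l, which helps join complexes III and IV, also did not overlap, with 102 ± 17.7 FPKM (SD, n = 4) against 69.0 ± 9.07 (n = 5). Ndufa4, named for complex I but now assigned to complex IV, did likewise, with 329 ± 53.9 against 243 ± 37.2 FPKM. Cox5a, which sits with Cox4i1 at the matrix side, was level at 258 ± 34.2 and 247 ± 54.7 FPKM. Cox7a1 had 0.825 to 3.97 FPKM in Gr-1+ and 0.626 to 1.63 in Gr-1- libraries.

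In ATP synthase, 3 members rose in Gr-1+ cells, all parts of the stalks that join the catalytic head to the membrane. Atp5c1, the rotating central stalk, had 293, 229.5, 304 and 209.5 FPKM in Gr-1+ and 138, 152, 144, 182 and 115 in Gr-1- libraries. Its groups did not overlap, and the difference was 0.82 ± 0.21 (SE; limma adjusted p = 0.0217). Atp5h, of the peripheral stalk, had 348 ± 58.1 FPKM (SD, n = 4) against 209 ± 32.7 (n = 5), a difference of 0.74 (limma adjusted p = 0.0358). Atp5f1, also of the peripheral stalk, had 152 ± 14.3 against 97.5 ± 19.5 FPKM, a difference of 0.65 (limma adjusted p = 0.0450). All 3 share sequence with another annotated gene. Of 18 alternatives, Atp5c1 was called in 14, Atp5f1 in 9 (limma adjusted p up to 0.135) and Atp5h in 8 (up to 0.121), and none of the 3 was called without the first null Gr-1+, the CEBPaCre Gr-1+, the null Gr-1- or the CEBPaCre Gr-1- library. The catalytic subunit Atp5b had 303 ± 40.9 against 242 ± 55.4 FPKM, with overlap (log2 difference 0.34; limma adjusted p = 0.377).

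In all, 12 members had every Gr-1+ library above every Gr-1- library, beside 10.2% of all genes tested: Ndufa4, Ndufc1, Ndufc2, Ndufs3, Ndufs6, Sdhc, Cox4i1, Cox5b, Cox7a2l, Atp5c1, Atp5f1 and Atp5h. Within single genotypes, 80 of 87 members were higher in Gr-1+ in null mice (median log2 difference 0.52), 83 in CEBPaCre (0.62) and 57 in CD19Cre (0.12). Without both CD19Cre libraries 20 members were called higher in Gr-1+, beside 1083 of 10423 genes tested. With genotype as a block 25 were, beside 1672 of 10436. Leaving out 1 library gave between 2 calls (without CEBPaCre Gr-1+, beside 628 genes higher) and 14 (without CD19Cre Gr-1-, beside 1015). Ndufc1 and Cox6b2 were called in all 18 alternatives.

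Markers of other cells also moved with the subsets. Of 12 neutrophil markers, 10 reached a mean of 1 FPKM. The list summed to 220 to 573 FPKM in Gr-1+ and 58.4 to 146 in Gr-1- libraries, with the granule gene Camp at 0 in all Gr-1- libraries. Csf3r (52.04 to 130.2 FPKM in Gr-1+ against 32.1 to 87.1 in Gr-1-) and Retnlg (13.9 to 127 against 8.73 to 74.98) overlapped between the subsets. Cxcr2 overlapped too and was highest in floxed Gr-1-, at 15.2 FPKM beside at most 7.94 in Gr-1+. The other listed neutrophil markers were higher in every Gr-1+ library than in any Gr-1- library. Of 10 natural killer cell markers, 9 reached that mean, with sums of 1.24 to 4.47 and 24.5 to 465 FPKM, and Ncr1 at 0 in all Gr-1+ libraries. Of 8 B cell markers, 5 did, with sums of 9.30 to 71.6 and 44.0 to 158 FPKM. None of the 7 T cell markers did. The part of these cells in the differences was not tested, and in bulk libraries fewer cells of a type and less RNA per cell cannot be told apart.

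**Figure D2:**
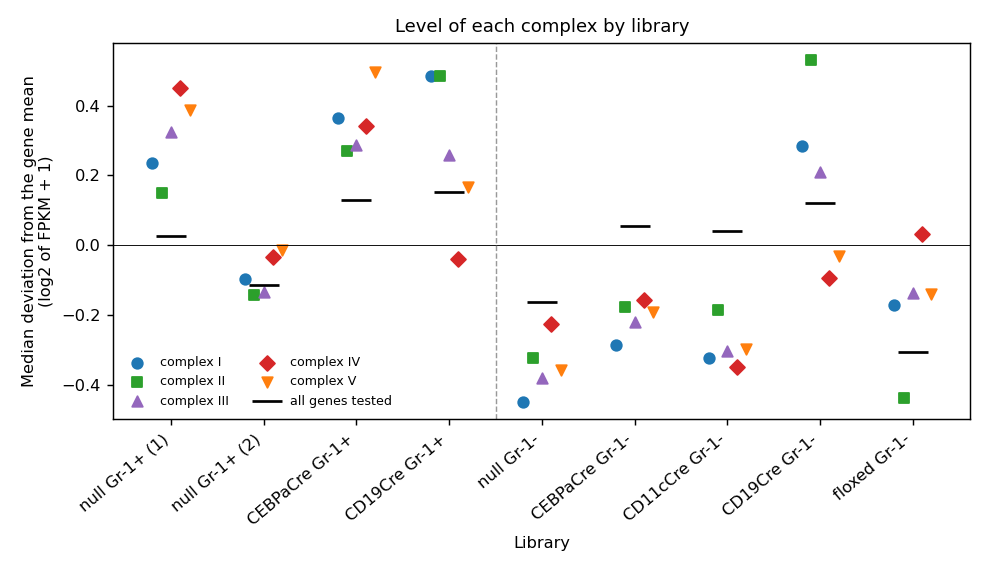
Each symbol is the median over the members of a complex of the deviation from the gene's mean over 9 libraries (y axis, log2 of FPKM + 1) in 1 library (x axis), and black bars are the same for all genes tested. In CD19Cre Gr-1- complex II stood at 0.53 and complex IV at -0.09, while in the CEBPaCre Gr-1+ library all 5 complexes lay between 0.27 and 0.50.

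In the lists of genes around the chain, 0% to 16.7% were called between the subsets, beside 14.8% of all genes tested. Among 12 other parts of the chain, Atpif1, which inhibits ATP synthase when it runs backwards, rose in Gr-1+ from 70.5 ± 20.6 (SD, n = 5) to 175 ± 33.4 FPKM (n = 4; log2 difference 1.33; limma adjusted p = 0.0039), and Gpd2, a dehydrogenase that feeds coenzyme Q, fell by 0.72 on the log2 scale. Of 24 further assembly factors 2 rose, Atpaf1 (1.03), which assembles the ATP synthase head, and Surf1 (0.76), which acts on complex IV. Of 13 coenzyme Q synthesis genes, Coq7 (1.04) and Coq10a (0.78) rose. Of 13 carriers and pores, 2 rose, the ATP/ADP exchanger Slc25a4 and the aspartate-glutamate carrier Slc25a13 (1.03). Slc25a4 had 102.7, 75.6, 83.2 and 88.3 FPKM in Gr-1+ libraries and 8.54 to 16.1 in Gr-1- libraries, a log2 difference of 2.70. None of 16 citric acid cycle genes was called. Of 16 regulators Esrra, an orphan nuclear receptor that acts on many genes of this pathway, fell in Gr-1+ by 0.77 on the log2 scale, from 21.0 ± 2.95 FPKM (n = 5) to 11.9 ± 2.21 (SD, n = 4). Of 76 mitochondrial ribosomal protein genes 4 rose, Mrpl30, Mrps9, Mrpl39 and Mrpl33, named after their values were seen.

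For the loss of Fcgr2 in myeloid cells, null and CEBPaCre libraries (n = 5) were set against CD19Cre and floxed libraries (n = 3) at equal subset. No member was called, beside 0.0% of all genes tested by limma, and 9 members had an unadjusted p under 0.05. The members' median log2 difference was -0.20, against -0.03 over all genes. By complex the medians were -0.30 (I), -0.27 (II), -0.23 (III), -0.01 (IV) and -0.08 (V), and the 7 core subunits of complex I were all below 0. Without both CD19Cre libraries, floxed was the only intact library left. The medians were then -0.14, 0.13, -0.29, -0.24 and -0.01 in the same order, with 0.23 over all genes. The median of complex II changed sign, but relative to all genes it stayed below, at -0.24 with and -0.10 without the CD19Cre libraries. Uqcrc1 (-1.13) and Uqcr11 (-0.99) of complex III were lowest, and Atp5g2 (1.30) and Ndufs5 (1.00) highest. Of these 4, all but Ndufs5 were called between CD19Cre and the null and CEBPaCre libraries. Without the floxed library, CD19Cre is the only intact genotype left, and the fit is the CD19Cre comparison below with its sign reversed. It called 17 members lower and 3 higher, beside 1751 genes lower and 800 higher of 10415 tested.

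The CD19Cre libraries were compared with null and CEBPaCre libraries (n = 2 and n = 5) at equal subset. Of the members, 17 were higher in CD19Cre and 3 lower by limma at an adjusted p of at most 0.05, beside 16.8% higher and 7.68% lower over all genes tested. The members' median was 0.25, and by complex 0.49 for complex II, 0.40 for complex I, 0.29 for complex III, 0.04 for complex V and -0.04 for complex IV, with 0.16 for all genes. Scaling by median ratio moved the median of all genes to -0.12 and turned the members' median to -0.07. It gave 14 calls higher and 16 lower, beside 1188 higher among 2998 genes called of 10415 tested. Quantile normalization gave 15 and 13, beside 1512 higher among 2585 genes called. Under each of these, 17 of the 20 calls were kept in direction. Relative to all genes, complexes I and II stayed above (0.24 and 0.33 as deposited, 0.21 and 0.29 after median ratio scaling, 0.09 and 0.12 after quantile normalization) and complex IV below (-0.19, -0.24 and -0.31) under those scalings.

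**Figure D3:**
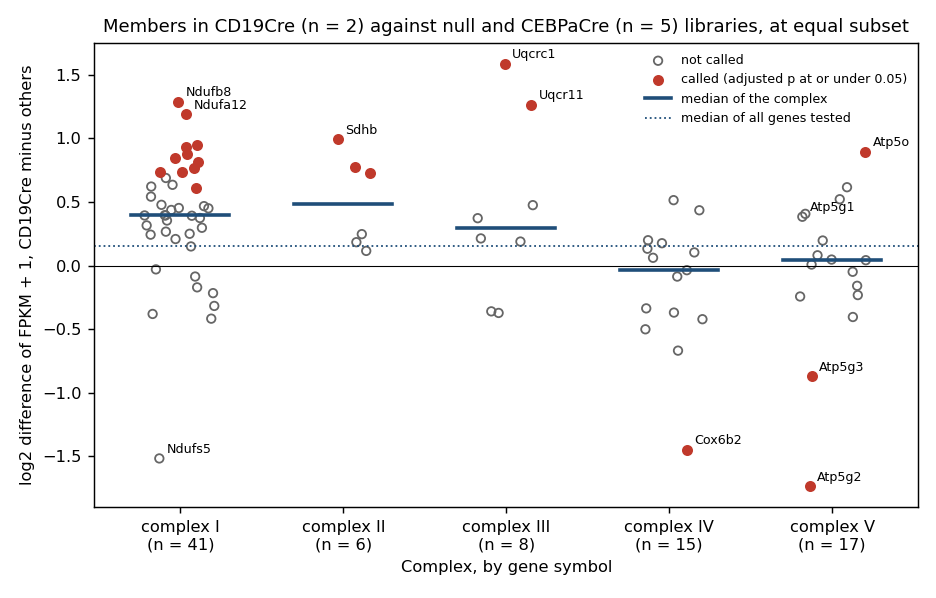
Each point is 1 member, placed by complex on the x axis and by its log2 difference of FPKM + 1 at equal subset (2 CD19Cre minus 5 null and CEBPaCre libraries) on the y axis. Filled points are the 20 called members, 17 above 0 and 3 below, bars are medians of a complex and the dotted line is the median of all genes tested, 0.16.

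Complex I supplied 11 of the 17 higher members, complex II 3, complex III 2 and complex V 1. Uqcrc1, a core protein of complex III, had the largest difference. It had 503 FPKM in CD19Cre Gr-1+ against 151, 129.98 and 221 in the other Gr-1+ libraries, and 340.0 in CD19Cre Gr-1- against 97.2 (null), 137 (CEBPaCre), 225 (CD11cCre) and 112 (floxed). CD19Cre was highest in each subset, and the fold on the FPKM + 1 scale was 3.004 (log2 difference 1.59 ± 0.25, SE; limma adjusted p = 0.00916). Its neighbour in the complex, Uqcr11, had 581 against 184 to 303 FPKM in Gr-1+ and 423 against 157 to 211 in Gr-1- (1.26; limma adjusted p = 0.0115).

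Ndufb8, an accessory subunit of complex I, had 551 FPKM in CD19Cre Gr-1+ against 246, 186 and 299.9, and 346 in CD19Cre Gr-1- against 125 to 159. Ndufa12 had 133 against 49.7 to 70.1 and 92.3 against 34.8 to 43.3 FPKM. Both were over 2-fold higher, with log2 differences of 1.29 and 1.19 (limma adjusted p = 0.01002 and 0.00933). Ndufab1, the acyl carrier protein, and the assembly factor Ndufaf1 followed at 0.88 and 0.95. Of the 7 core subunits 3 rose, Ndufv1 (0.61), Ndufv2 (0.73) and Ndufs8 (0.81), and all 7 were above 0. Ndufv1 passed narrowly (limma adjusted p = 0.04998) and was called in 4 of 15 alternatives, with 0.0676 after median ratio scaling and 0.0838 after quantile normalization.

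In complex II, Sdhb, the iron-sulfur subunit, had 329 FPKM in CD19Cre Gr-1+ against 189, 151 and 221, and 252 in CD19Cre Gr-1- against 96.3 to 155 (log2 difference 1.00 ± 0.22, SE; limma adjusted p = 0.0177). Sdha (0.77) and Sdhd (0.73) rose with it, and Sdhc (0.25) did not pass. In complex V, Atp5o, the link between head and stalk, had 228 against 119 to 174 FPKM in Gr-1+ and 207 against 80.5 to 129 in Gr-1- (0.90; limma adjusted p = 0.0263). No member of complex IV rose.

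The 3 lower members were Atp5g2, Atp5g3 and Cox6b2. Atp5g1, Atp5g2 and Atp5g3 encode the same mature c subunit of the ATP synthase rotor behind different import sequences, so their RNA can be compared as shares of 1 product. Atp5g2 had 26.8 FPKM in CD19Cre Gr-1+ against 166, 103 and 152, and 42.5 in CD19Cre Gr-1- against 90.3 (null), 92.1 (CEBPaCre), 81.9 (CD11cCre) and 91.7 (floxed). Both CD19Cre libraries lay below all 7 others (log2 difference -1.74 ± 0.30, SE; limma adjusted p = 0.01002). Atp5g3 had 143 against 326 to 384 and 155 against 182 to 218 FPKM, again lowest in each subset (-0.87; limma adjusted p = 0.0288).

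Atp5g1 was not lower, with 161 FPKM in CD19Cre Gr-1+ against 111 to 153 and 132 in CD19Cre Gr-1- against 84.3 to 91.9 (0.38; limma adjusted p = 0.185). Atp5g1 therefore made 48.6% and 39.9% of the summed c subunit FPKM in the CD19Cre libraries and 20.5% to 24.2% in the other 7, while Atp5g2 made 8.11% and 12.9% against 19.0% to 24.8%. Atp5g3 made 43.3% and 47.2% against 51.5% to 60.4%. Atp5g1 has a near-identical copy, Gm10039, and the other two have none, so its share can hold reads of that copy. The sum was 331 FPKM in CD19Cre Gr-1+ beside 539 to 698 in the other Gr-1+ libraries, and 329 in CD19Cre Gr-1- beside 348 to 402.

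**Figure D4:**
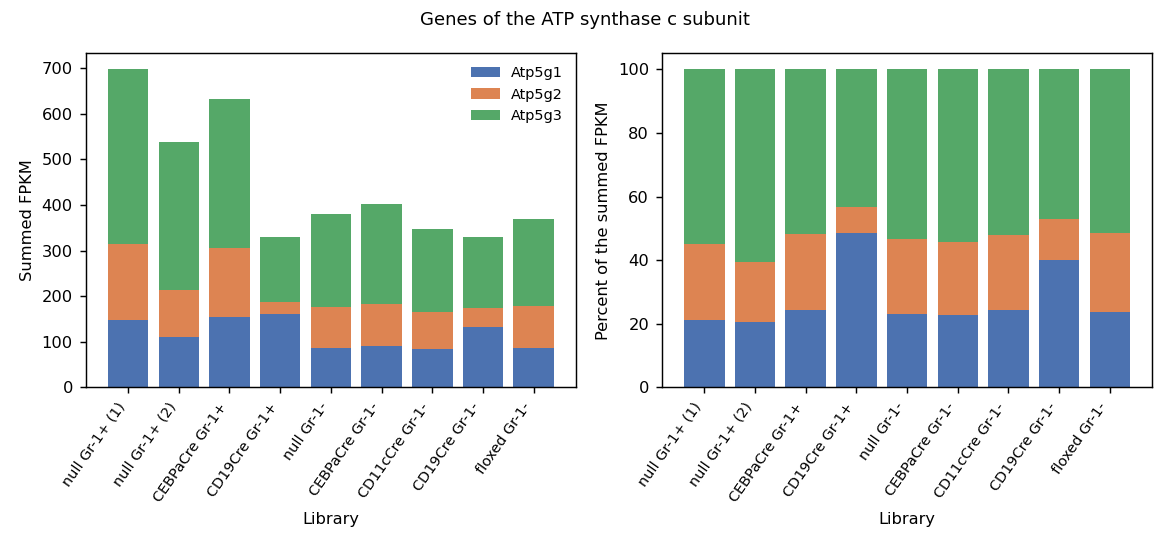
Stacked bars give the FPKM of Atp5g1, Atp5g2 and Atp5g3 in each library (left) and their percent of the sum (right). Atp5g1 makes 48.6% and 39.9% in the CD19Cre libraries and at most 24.2% in the others.

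The 3 promoters are shown because these genes make 1 protein from separate start regions, 2 of them lower in CD19Cre and 1 not called. Each line gives the 150 bases before the start of the gene from RefSeq (GRCm38.p6), all on the minus strand, at chr11:96075632-96075781 for Atp5g1, chr15:102671048-102671197 for Atp5g2 and chr2:73911327-73911476 for Atp5g3. Capitals mark the palindromic match to the NRF1 core GCGCANGCG in Atp5g2, which holds overlapping matches on both strands, and the match to the ERR site TCAAGGTCA, on the other strand, in Atp5g3. The stretch of Atp5g1 holds none of the motifs searched.
Atp5g1: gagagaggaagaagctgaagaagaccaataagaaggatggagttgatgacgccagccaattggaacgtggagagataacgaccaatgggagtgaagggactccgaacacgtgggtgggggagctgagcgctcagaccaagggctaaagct
Atp5g2: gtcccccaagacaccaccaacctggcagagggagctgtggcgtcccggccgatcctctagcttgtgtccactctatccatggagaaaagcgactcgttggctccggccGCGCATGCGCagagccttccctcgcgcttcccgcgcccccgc
Atp5g3: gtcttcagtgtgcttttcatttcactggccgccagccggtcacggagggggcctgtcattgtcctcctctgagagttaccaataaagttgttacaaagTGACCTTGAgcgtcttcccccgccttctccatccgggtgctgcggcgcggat

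Over the members, 74 of 87 had a RefSeq promoter window (250 bases before to 50 after the start), and motifs were searched on both strands. The NRF1 core was in 27.0% of them, against 14.8% of windows of genes that averaged 1 FPKM or more and 6.47% of all windows. The YY1 site AAGATGGCG was in 9.46%, against 3.68% and 1.49%, and the ERR site in 2.70%, against 0.312% and 0.407%. The GC box GGGGCGGGG was in 17.6% (21.6% and 11.6%) and the ETS site ACCGGAAGT in 1.35% (2.51% and 1.10%). The members with the ERR site were Atp5g3, lower in CD19Cre, and Sdhd, higher in CD19Cre, and both also hold the NRF1 core, in Atp5g3 outside the stretch shown. A match describes letters in a window and not a bound factor.

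Over all members, 34 lay above the null and CEBPaCre libraries in CD19Cre in both subsets and 11 below in both. The contrast rests on few libraries. Without CD19Cre Gr-1+ 0 members were called, as calls over all genes fell from 1751 higher and 800 lower to 7 in all with 1 library left in that arm, while the members' median went from 0.25 to 0.46. Without CD19Cre Gr-1- the members' median was 0.10, again with 1 library left in that arm. Without null Gr-1- 9 members were called higher, beside 1105 of 10400 genes tested. A lone CD19Cre library is assumed to vary like the other groups. The median transcript length was 1231 bases for the 17 higher members, 586 for the 3 lower and 755 for all members, and the CD19Cre difference correlated with length over the 87 genes (Spearman rho = 0.35, a description across genes). With a trend on length removed from each library, 30 members were higher and 6 lower, beside 3134 of 10263 genes called. B cell markers summed to 71.6 FPKM in CD19Cre Gr-1+ beside 9.30 to 18.8 in the other Gr-1+ libraries, and to 158 in CD19Cre Gr-1- beside 44.0 to 134. The part of these values in the differences was not tested.

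Around the chain, the CD19Cre fit called 6 of 12 other chain parts, all higher, beside 16.8% of all genes tested higher and 7.68% lower. Dhodh (1.04), Etfdh (1.03) and Etfa (0.91), which feed coenzyme Q from pyrimidine synthesis and fatty acid oxidation, had the smallest p. Of 16 citric acid cycle genes 7 rose and 1 fell, led by Mdh2, mitochondrial malate dehydrogenase (1.81), and Sucla2 (1.17), with Dlst at -0.92. Of 24 further assembly factors 7 rose and 1 fell, among the former Uqcc (0.89), Tmem126b (1.06) and Foxred1 (1.19), and the latter was Cox16 (-0.74). Of 13 coenzyme Q genes 3 rose, Coq7 (0.75), Coq5 (0.91) and Adck4 (0.73). Of 13 carriers and pores Vdac3 (0.95) and Slc25a20 (0.81) rose and Ucp2 (-0.91) fell, and of 16 regulators Gabpb1 (0.75) rose. Of 76 mitochondrial ribosomal protein genes 23 rose and 0 fell, while 63 of 80 cytosolic ribosomal protein genes fell.

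Whether the subset difference itself depended on CD19Cre was tested as an interaction over 7 libraries. No member was called, beside 0.0864% of all genes tested, and 2 had an unadjusted p under 0.05 by limma. The members' median interaction was -0.36 against -0.01 over all genes, with 77 of 87 below 0. Ndufs5 (-4.38) and Cox6b2 (-1.51) were lowest and Atp5s (0.73) and Cox7a1 (0.70) highest. With 1 CD19Cre library per subset, the spread in this fit comes from the other libraries alone.

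Among the Gr-1- libraries, each genotype has 1 library and was set beside floxed with no test, counting members past 2-fold on the FPKM + 1 scale. The null library had 0 such members (4.16% of all genes), CEBPaCre had Cox6a2 higher and Ndufs5 lower (12.1%), and CD11cCre the same 2 (17.3%). CD19Cre had 13 higher and 2 lower (25.8%), the lower being Cox6b2 and Atp5g2. Those higher came from complexes I, II, III and V.

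Cox6a2 was a feature of a single library. It had 26.4 FPKM in CD11cCre Gr-1-, 1.28 in CEBPaCre Gr-1-, 0.447 in null Gr-1-, 0.218 in CD19Cre Gr-1- and 0.295 in the second null Gr-1+ library, and was listed at 0 in the other 4. Its subset difference of -1.26 (limma adjusted p = 0.359) rests on that library. Cox6a1, the isoform of most tissues, had 340.4 FPKM in CD11cCre Gr-1-, while the rest of that subset ranged from 372 to 459.95. Cox6a2 lies near integrin genes, among them Itgax, which encodes CD11c, whose promoter drives this Cre. In the CD11cCre library Itgax had 301 FPKM beside 33.8 to 66.0 in the other Gr-1- libraries, Itgad 35.4 beside 1.79 to 6.60, and 4931431B13Rik 20.8 beside 0 to 2.81. Armc5, on the far side of Cox6a2, had 13.2 beside 6.20 to 8.12, and Itgam 157 FPKM within the range of 66.1 to 179.5. These genes were high together in 1 library, which has no replicate. The same library had the highest sum of natural killer cell markers, 465 FPKM beside 24.5 to 189 in the other Gr-1- libraries. Dendritic cell markers summed to 73.4 FPKM there beside 16.6 to 45.2, of which Cd209a alone made 58.3 beside 3.98 to 31.8. Flt3 and Clec9a were also highest in that library among the Gr-1- libraries, while Zbtb46, Siglech, Xcr1 and Tcf4 were not. The part of natural killer and dendritic cells in the values of Cox6a2 and its neighbours was not tested.

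**Figure D5:**
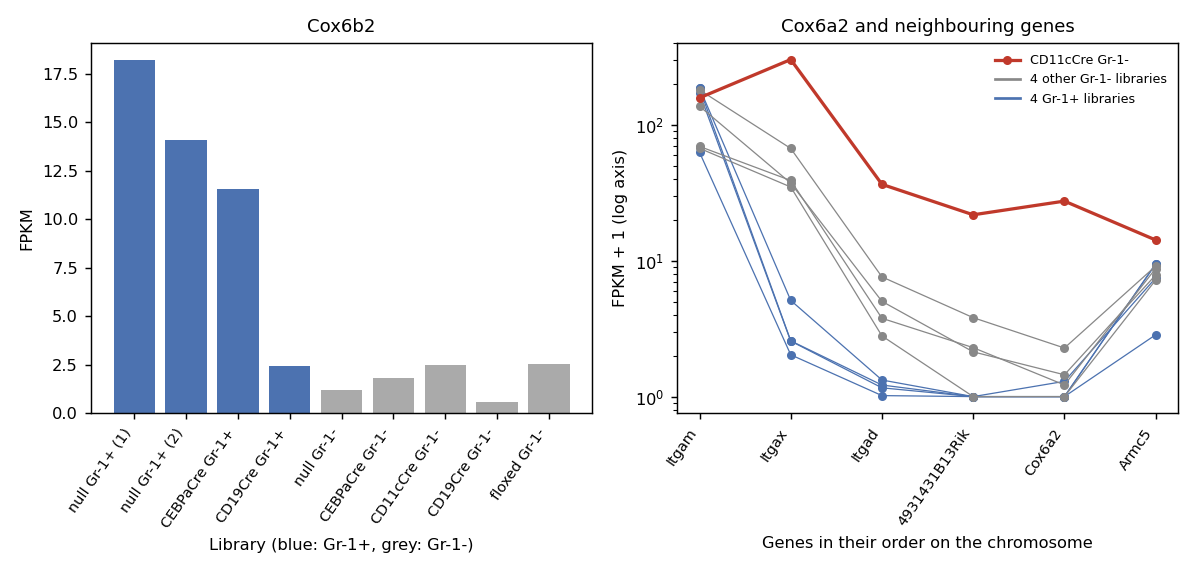
Left, FPKM of Cox6b2 in each library, 11.5 to 18.2 in the null and CEBPaCre Gr-1+ libraries and at most 2.54 in the others. Right, FPKM + 1 on a log axis for Cox6a2 and its neighbours in chromosome order, 1 line per library, with CD11cCre Gr-1- highest at Itgax, Itgad, 4931431B13Rik, Cox6a2 and Armc5.

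Ndufs5, an accessory subunit of complex I, varied widely within each subset. It had 32.5, 6.68 and 5.62 FPKM in the null and CEBPaCre Gr-1+ libraries, 14.4, 5.84 and 7.30 in the null, CD19Cre and floxed Gr-1- libraries, and 0.00136, 0.000797 and 0.00162 in CD19Cre Gr-1+, CEBPaCre Gr-1- and CD11cCre Gr-1-. Its near-identical copy BC002163 had 31.9 to 75.8 FPKM in all 9 libraries. Reads of the pair can be split between them, so the differences of Ndufs5 given above are uncertain.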

How the data were processed

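RNA-seq values of 9 libraries were deposited by the authors as FPKM, 1 value per gene symbol and library. Per the submitters' processing notes these came from TopHat2 2.0.8 and Cufflinks 2.1.1 on mm9; the annotation and counting settings are not given in the sources used here. Members and gene lists were chosen with earlier results of these data known. Genes that averaged 1 FPKM or more and had values above 0 in at least 2 fitted libraries were tested on log2(FPKM + 1) with limma 3.58.1 (R 4.3.3, trended variance) and Benjamini-Hochberg adjustment over all genes, and called at an adjusted p of at most 0.05. A pseudocount of 1 understates the change of low genes, and FPKM are shares of a library, so a few very high genes lower all others. The subset fit used 9 libraries with no covariate. The fits of deletion and of CD19Cre had subset as a covariate and left out CD11cCre.

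Named genes were a set of core, c subunit and tissue isoform genes, up to 4 called members per complex and direction, the 2 largest and 2 smallest differences, the 5 highest and lowest means and up to 3 called genes per pathway list. Near-identical sequence in other genes was searched with BLAST 2.17.0 among annotated transcripts, and genes that overlap a member were not excluded. Promoters came from RefSeq (GRCm38.p6), matched by symbol; no coordinate was converted between builds. Values of 1 member are not reported here. The fits were tested on simulated data. Alternatives were other pseudocounts, minimum means, scalings, library weights, a length trend and leaving out libraries.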

Additional observations from a re-analysis of the deposited data

Results flagged for a closer look

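A single library stood apart from the others of its subset for 20 of 174 sets of 4 or 5 libraries (11.5%), where chance gives about 1 in 20 and all genes with the same minimum mean gave 8.26%. Of these, 16 were in CD19Cre Gr-1-, which is 18.4% of the members beside 4.32% of all those genes. In that library the complex I genes Ndufa12 (92.3 FPKM beside 34.8 to 43.3 in the other Gr-1- libraries), Ndufa8 (137 beside 72.9 to 84.9), Ndufaf3 (20.9 beside 12.4 to 14.4), Ndufb10 (216 beside 103 to 134) and Ndufb5 (63.1 beside 38.2 to 42.7) were high. So were Ndufb6 (105 beside 58.6 to 70.3), Ndufb7 (348 beside 168 to 209), Ndufb8 (346 beside 125 to 159), Ndufs8 (139 beside 64.5 to 73.2) and Ndufv2 (92.1 beside 46.6 to 56.1). Of the other complexes, Sdhc (61.8 beside 43.1 to 46.8), Sdhd (127 beside 58.9 to 72.1), Uqcr11 (423 beside 157 to 211), Atp5f1 (132 beside 85.4 to 94.2) and Atp5g1 (132 beside 84.3 to 91.9) were high there, and Atp5g2 was low (42.5 beside 81.9 to 92.1).

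The other 4 lay in other libraries. Cox6a2 had 26.4 FPKM in CD11cCre Gr-1- beside 0 to 1.28, and 0.295 in the second null Gr-1+ library beside 0 in the other Gr-1+ libraries. Uqcr10, a small subunit of complex III, had 189.9 FPKM in the second null Gr-1+ library beside 267 to 281. Cox6c had 334 FPKM in floxed Gr-1- beside 243 to 260.2.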

How the results depend on the processing

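The median difference between the subsets stayed above 0 for every complex in all alternatives run. The count of members called higher in Gr-1+ was 7 as reported, beside 923 of 10436 genes tested. It was 12 after median ratio scaling (1021 genes), 14 after quantile normalization (1064) and 33 with library weights (1352). With a length trend removed it was 11 (1039 of 10283 genes), and with genotype as a block 25 (1672 of 10436). Without both CD19Cre libraries it was 20 (1083 of 10423 genes). In an alternative chosen after seeing the data, it was 3 without members that share such near-identical sequence with another gene. Leaving out 1 library gave 2 to 14, with 3 without the first null Gr-1+, the null Gr-1- or the CEBPaCre Gr-1- library, 4 without CD11cCre and 2 without CEBPaCre Gr-1+. Ndufaf2 was the 1 member called higher in Gr-1- after quantile normalization, with library weights, with a length trend removed and with the genotype block.

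For the myeloid deletion (0 calls), library weights gave 1 member higher and 5 lower, beside 673 of 10429 genes called. Leaving out 1 library gave 0 to 3 higher and 0 to 17 lower. The highest counts came without floxed, a fit that repeats the CD19Cre comparison with its sign reversed. For CD19Cre (17 higher and 3 lower), no minimum mean gave 10 and 1, beside 1468 of 17941 genes called. Median ratio scaling gave 16 lower and quantile normalization 13 lower. A length trend removed gave 30 and 6, beside 3134 of 10263 genes called. Leaving out 1 library gave up to 19 higher (without CEBPaCre Gr-1+, beside 1921 of 10406 genes called higher) and up to 4 lower. Without CD19Cre Gr-1+ or CD19Cre Gr-1-, 1 library was left in that arm, and the members' median was 0.46 or 0.10. The cause was not tested. The interaction could not be fitted without either CD19Cre library, and the weights of 1 fit stopped before their tolerance was met. The labels number only the null libraries, so no replicate numbers pair the subsets; the genotype block above, over the 3 genotypes with both subsets, is the pairing that could be fitted.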
